A study of Mus musculus with 3 samples.

Results

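The mouse miRNAs described here were those whose array names place them in the miR-297, miR-466, miR-467 or miR-669 families, together with miR-574-5p. They made up 62 of the 1881 mouse miRNAs on the array and were read by 164 of its 4415 probes. The miR-297 family had 3 of them, miR-466 had 23, miR-467 had 12, miR-669 had 23, and miR-574-5p stood alone. By name 26 were 5p arms and 26 were 3p arms of a hairpin, and 10 carried no arm in the name. The rule that picks them uses names alone, but it was set with earlier results of these data known.

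RNA came from serum of male C57BL/6NJcl mice aged 8 weeks, an inbred strain, and was measured on 3 Agilent 1-colour miRNA arrays, with 1 array for each of 3 extraction methods. The column-based miRNeasy serum/plasma advanced kit and the mirVana PARIS kit, an organic extraction followed by a filter, were each used on 200 µL of serum. For the exoRNeasy midi array, 700 µL of QIAzol, a lysis reagent of phenol and guanidine, was added to 200 µL of serum and RNA was taken from the aqueous layer. Each array received Cy3-labelled material from 1.8 ng of RNA, and neither the number of mice nor any pooling of their serum is given. A single array per kit allows no replicate check, no p-value was computed, and every difference below is between these 3 arrays. Errors are between replicate spots of a probe on an array, and they cover neither the extraction nor the mice.

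MicroRNAs are short RNAs cut from the 2 arms of a hairpin, and they pair with target messages mainly through the seed, bases 2 to 8. Sfmbt2 encodes a Polycomb-group protein and is an imprinted gene, expressed from the paternal copy in the placenta and other extraembryonic tissues of the mouse. An intron of it holds a large rodent-specific cluster of repeated hairpins, to which most miR-297, miR-466, miR-467 and miR-669 genes belong. Many of these hairpins derive from simple repeats, so that their 5p arms tend to be rich in G and U and their 3p arms in C and A. The hairpin of miR-574 is unrelated by position and lies in an intron of Fam114a1. Its 5p arm is also a repeat of G and U, and it is known as a decoy for the RNA-binding protein CUGBP1.

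The names were checked against the RefSeq gene table. RefSeq placed 49 of the 62 inside the span of Sfmbt2 alone, and 3 (miR-297a-3p, miR-466f-3p and miR-466f-5p) had gene copies both inside and outside it. A further 9 lay outside Sfmbt2, and miR-466a-5p matched no RefSeq gene by name. Those outside were miR-466i-3p and miR-466i-5p in Cdk13, a kinase gene for RNA polymerase II, miR-467f in Fxr2, a paralogue of the fragile X gene, miR-466q in Tnik, miR-467g in Grk4, miR-669n in Slc30a7, a zinc transporter gene, miR-574-5p in Fam114a1, and miR-466j and miR-466k, which had no host gene in the table. The span of Tlr6 also covers miR-574 in that table.

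Mature sequences were available in the RefSeq table for 8 of the 62, which left a check of sequence over the whole set void, and miR-466i-5p was not among the 8. The sequences are shown because they carry the repeat by which miR-574-5p was compared with the other members. Capitals mark the seed, and positions refer to build GRCm38.p6. The first has a strictly alternating run of G and U, 13 bases long, from base 4 to base 16 of the 23 bases of the miRNA, and lies at chr5:64970328-64970350 on the plus strand.
miR-574-5p: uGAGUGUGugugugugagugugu
The opposite arm of the same hairpin, at chr5:64970364-64970385 on the plus strand, is not a member by the rule and was used for comparison.
miR-574-3p: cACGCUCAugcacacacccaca
Of the other members with a sequence, 2 had a run of alternating G and U of at least 8 bases. These were miR-466k at chr3:85467396-85467418 on the plus strand, with a run of 9, and miR-669n at chr3:115979905-115979924 on the plus strand, with a run of 8.
miR-466k: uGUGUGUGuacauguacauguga
miR-669n: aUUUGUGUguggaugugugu
In 4 other members the alternating bases were C and A. The run was 9 bases long in miR-467g, and the 3 members printed had longer ones, of 12 in miR-467f (chr11:69635419-69635439, minus strand), 12 in miR-466q (chr3:28419988-28420007, plus strand) and 11 in miR-466i-3p (chr13:17747552-17747573, plus strand).
miR-467f: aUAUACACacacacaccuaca
miR-466q: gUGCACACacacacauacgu
miR-466i-3p: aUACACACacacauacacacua
None of the 1608 array miRNAs with a sequence in the table shared the seed of miR-574-5p.

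Serum RNA was present on every array by its markers, since 7 of 7 serum and blood miRNAs chosen as a check, among them miR-451a of red cells and miR-122-5p of liver, were detected on each. A probe was counted as detected when over 0.5 of its spots were flagged well above background by the scanner software, and a miRNA when at least 1 of its probes was. No spot was saturated. The arrays shared a slide, a scan and a detector setting, per the file headers. Negative-control spots averaged between 4.88 and 5.26 scanner units, and the lowest signal of a detected probe was 22.0, 12.4 and 9.56 on the exoRNeasy, miRNeasy advanced and mirVana PARIS arrays.

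Of the 62 members, only miR-466i-5p and miR-574-5p were detected, and both lie outside Sfmbt2. The exoRNeasy array detected both of them, a share of 3.23%, where 4.41% of all 1881 miRNAs were detected. The miRNeasy advanced array detected miR-466i-5p, or 1.61%, where 3.77% of all miRNAs were detected. The mirVana PARIS array again detected both, 3.23%, where 7.12% of all miRNAs were detected. The members' shares were thus below the share over all miRNAs on each array, with counts of 1 or 2 behind them. None of the 49 miRNAs placed in Sfmbt2 alone was detected on any of the 3 arrays by this rule. Both detected members were among the 26 that are 5p arms. None of the 26 that are 3p arms and none of the 10 without an arm in the name was detected. The shares by arm over the whole array are not given, and such small counts do not set the arms apart.

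Other rules for detection changed which dim members counted. The scanner software's own flag per miRNA called 4 members with exoRNeasy, where it called 7.12% of all miRNAs, 2 with miRNeasy advanced, where it called 5.16%, and 3 with mirVana PARIS, where it called 8.56%. The additional calls were miR-466h-3p and miR-467f in the first, miR-574-5p in the second and miR-467f in the third. By that flag 1 member placed in Sfmbt2, miR-466h-3p, was called, and on the exoRNeasy array alone. With every probe of a miRNA required, miR-574-5p was not detected on any array, since its second probe stayed below the threshold.

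**Figure D1:**
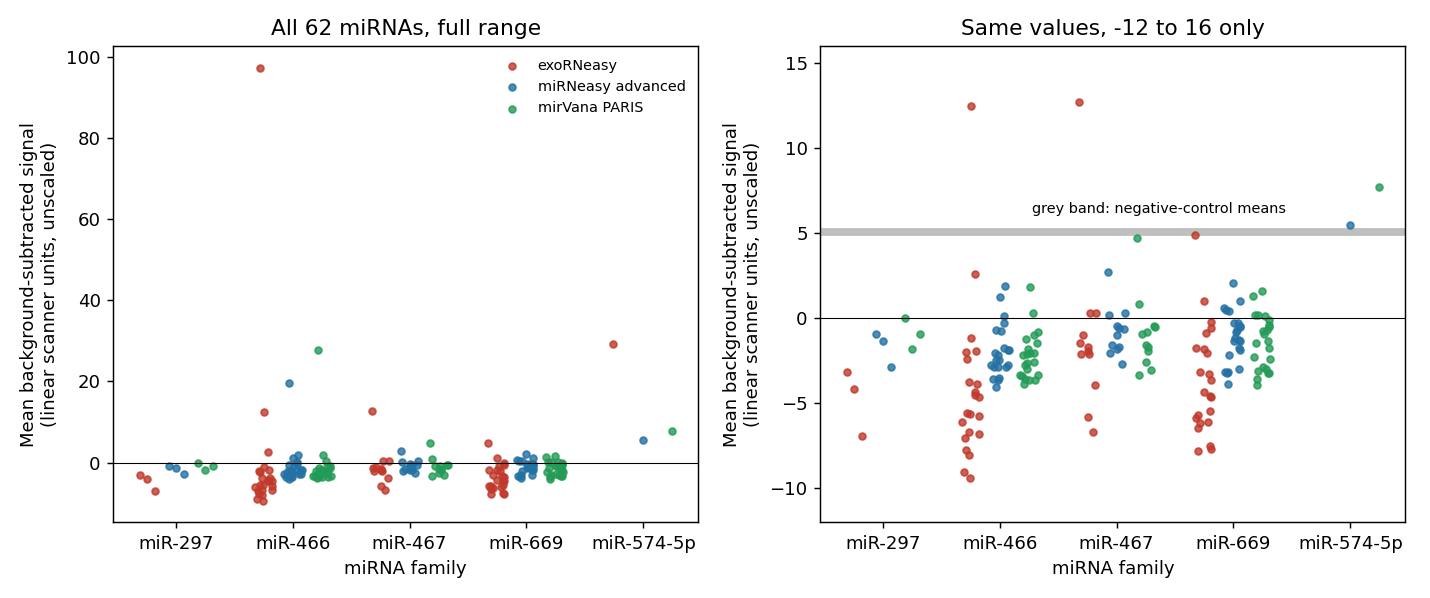
Mean background-subtracted signal over all spots and probes of each of the 62 miRNAs (vertical axis, linear scanner units, unscaled), by family (horizontal axis) and array (colour), over the full range on the left and from −12 to 16 on the right. In the miR-466 family 1 point per array, miR-466i-5p, stands far above the rest, and in the right panel nearly all others lie below the grey band of the negative-control means.

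miR-466i-5p, the 5p arm of a hairpin within Cdk13, was the brightest signal of the set on all 3 arrays. Its brighter probe, with 15 spots on each array, read 106.7 ± 8.40 scanner units (SD between spots) on the exoRNeasy array, with spots from 92.0 to 119.7. The same probe read 22.5 ± 4.65 on the miRNeasy advanced array, with spots from 17.2 to 30.5. On the mirVana PARIS array it read 31.0 ± 3.85, with spots from 25.3 to 36.4. The exoRNeasy spots did not overlap those of either other array, and the spots of the miRNeasy advanced and mirVana PARIS arrays overlapped. The second probe of the miRNA kept that order, at 86.4 ± 4.47 on exoRNeasy, 16.7 ± 4.13 on miRNeasy advanced and 24.2 ± 3.51 on mirVana PARIS, and it was also detected on every array. On the miRNeasy advanced array 80% of the spots of this second probe were above background, against 100% on the others. The opposite arm, miR-466i-3p, whose sequence is the C and A repeat printed above, was not detected, with means over its spots of −1.92, 1.90 and −1.02 in the same order. Signals of different probes also depend on how each probe binds, so these values do not rank the 2 arms by abundance.

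miR-574-5p stood above the limit of detection on the exoRNeasy array and near it on the others. By its brighter probe it ranked 60 of the 83 miRNAs detected on exoRNeasy, whose median signal was 67.0 scanner units. Its brighter probe, with 15 spots on each array, read 40.8 ± 5.12 scanner units on exoRNeasy, with spots from 31.9 to 48.7, all of them above background. On the miRNeasy advanced array it read 8.01 ± 2.58, with spots from 2.89 to 11.9, and none of them was flagged above background. On the mirVana PARIS array it read 11.8 ± 3.50, with spots from 6.09 to 18.0, and 66.7% of them were above background. As for miR-466i-5p, the exoRNeasy spots lay apart from both other arrays and the spots of the other arrays overlapped each other. The second probe read 14.5 ± 2.02, 2.92 ± 1.45 and 3.58 ± 2.15 in the same order and was detected on none, though its exoRNeasy spots too lay above all of its spots on the other arrays. The detection of miR-574-5p on the mirVana PARIS array was thus a matter of 1 probe a little over the threshold, and it ended when all spots of the probe were required.

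**Figure D2:**
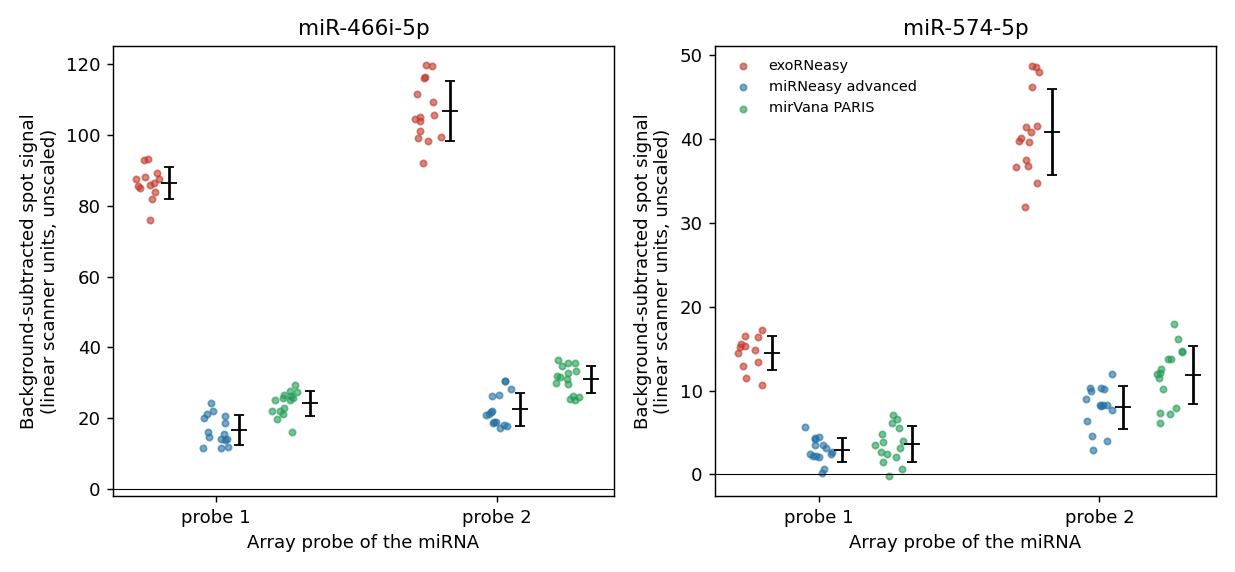
Background-subtracted signal of every spot without an outlier flag (vertical axes, linear scanner units, unscaled) for both probes of miR-466i-5p (left) and miR-574-5p (right) on the 3 arrays, with the mean and SD between spots in black. For each of the 4 probes all exoRNeasy spots lie above those of the other arrays, while the miRNeasy advanced and mirVana PARIS spots overlap.

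Differences between arrays were taken on the log2 scale after subtracting, from each array, its 75th percentile among 106 probes that were detected everywhere. The exoRNeasy array was higher than the miRNeasy advanced array for miR-466i-5p by 1.43 ± 0.08 (SE between spots), or 2.70-fold. This was the highest of the 67 miRNAs detected on both arrays, whose median difference was 0.12, and 2.99% of them were at least 2-fold higher and 1.49% at least 2-fold lower on exoRNeasy. miR-574-5p was not detected on the miRNeasy advanced array, so that its difference has only a bound, the exoRNeasy level against the lowest level of a detected probe on the other array. By that bound it was at least 1.87-fold higher on exoRNeasy, and at least 1.53-fold with the median of the 106 probes as scale. With normexp background correction, which adds an offset before the log, the difference of miR-466i-5p was 0.50, and with uncorrected pixel medians it was 0.60, so that it was no longer 2-fold.

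Against the mirVana PARIS array both miRNAs were detected on both sides. miR-574-5p was higher on exoRNeasy by 2.81 ± 0.13, or 7.01-fold, and ranked first of 80 miRNAs. miR-466i-5p was higher on exoRNeasy by 2.76 ± 0.06, or 6.77-fold, and ranked second. The order of these 2 and of miR-5119, at 2.71 ± 0.10, was not resolved within the errors between spots. The median difference of the 80 was 0.33, and 25% of them were at least 2-fold higher on exoRNeasy and 2.5% at least 2-fold lower. Of the members detected on both arrays, 2 of 2 were past 2-fold in this direction. Normexp lowered the differences to 1.24 for miR-574-5p and 1.59 for miR-466i-5p, both still past 2-fold.

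Between the remaining arrays, miR-466i-5p was higher on miRNeasy advanced than on mirVana PARIS by 1.33 ± 0.09 after scaling, or 2.51-fold, the fifth highest of 71 miRNAs, of which 14.1% were at least 2-fold higher and 2.82% at least 2-fold lower on miRNeasy advanced. Without scaling the direction turned, to −0.48, as the mean signals of 22.5 and 31.0 show. No bound above 1-fold could be given for miR-574-5p in this pair. The direction of this comparison therefore rested on the scaling, while both comparisons with the exoRNeasy array kept theirs.

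Scaling shifted all miRNAs of a pair by the same amount. Without it the median difference over all miRNAs detected on both arrays was 0.96 for exoRNeasy against miRNeasy advanced, −0.64 for exoRNeasy against mirVana PARIS and −1.62 for miRNeasy advanced against mirVana PARIS. Unscaled, miR-466i-5p differed by 2.27 in the first pair, where 43.3% of all miRNAs were at least 2-fold higher on exoRNeasy, and by 1.79 in the second, where 6.25% were and 27.5% were at least 2-fold lower. In the third pair 80.3% of all miRNAs were at least 2-fold lower on miRNeasy advanced without scaling, and miR-466i-5p, at −0.48, was not. Unscaled, miR-574-5p differed by 1.84 in the second pair, and its bound in the first was at least 3.33-fold. Relative to the median miRNA of the pair, with or without scaling, miR-466i-5p stood 1.31 log2 units higher on exoRNeasy than on miRNeasy advanced and 2.43 higher than on mirVana PARIS, and 1.15 higher on miRNeasy advanced than on mirVana PARIS. miR-574-5p stood 2.48 above the median in exoRNeasy against mirVana PARIS. The 3 pairs share arrays, so these differences are not independent of each other.

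**Figure D3:**
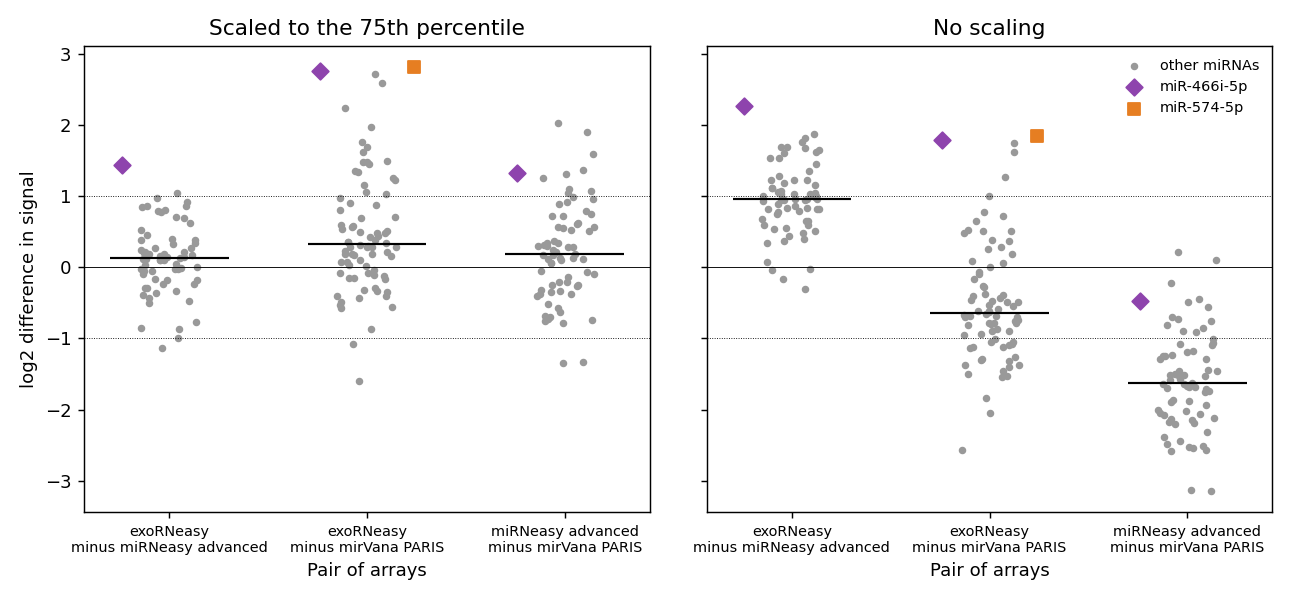
log2 difference in signal (vertical axis) for each pair of arrays (horizontal axis) of all miRNAs detected on both, after scaling (left) and without (right), with black lines at the medians, dotted lines at 2-fold, and miR-466i-5p and miR-574-5p marked. Both marked miRNAs lie at the top of the exoRNeasy against mirVana PARIS differences, at 2.76 and 2.81 after scaling, and miR-466i-5p falls below 0 in the last pair without scaling.

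The opposite arm of the miR-574 hairpin gave smaller differences between exoRNeasy and mirVana PARIS than the 5p arm; the gap between the arms was not tested. miR-574-3p was read by 4 probes, of which 1, with 7 spots on each array, was detected, and only on the mirVana PARIS array. That probe read 23.2 ± 3.72 scanner units on exoRNeasy with 42.9% of spots above background, 6.73 ± 2.68 on miRNeasy advanced with none, and 21.8 ± 2.48 on mirVana PARIS with 100%. Its exoRNeasy and mirVana PARIS spots overlapped, and the unscaled log2 difference between these arrays, which compares a probe not counted as detected with a detected one, was 0.08 ± 0.11. On the same scale the 5p arm was higher on exoRNeasy by 1.84. After scaling the differences were 1.05 for the 3p arm, higher on exoRNeasy, and 2.81 for the 5p arm. For the 3p arm the mirVana PARIS array was at least 1.79-fold above miRNeasy advanced without scaling, and no bound above 1-fold could be given after scaling. The 2 arms come from 1 hairpin but their mature sequences share no repeat, the 5p arm alternating G and U and the 3p arm holding a run of 7 alternating C and A.

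The other 60 members were not detected on any array, and their signals are given on the linear scale since many were below 0 after background subtraction. Their median signal was −4.04 scanner units on exoRNeasy (quartiles −6.10 and −1.82), −1.48 on miRNeasy advanced (−2.70 and −0.47) and −1.79 on mirVana PARIS (−2.97 and −0.67). The 1684 other miRNAs detected on none of the arrays had medians of −3.53, −1.94 and −1.82. The negative-control spots, at 5.26 ± 3.53, 4.88 ± 2.65 and 4.90 ± 2.53 (SD between spots), were higher than nearly all of these members. Above the negative-control mean were 2 of the 60 members on exoRNeasy, 3.33%, beside 12.3% of the other undetected miRNAs. On the miRNeasy advanced and mirVana PARIS arrays no undetected member exceeded that mean, beside 1.19% and 1.37% of the others. Signals above 0 were read for 7, 11 and 9 of the 60 members on exoRNeasy, miRNeasy advanced and mirVana PARIS, or 11.7%, 18.3% and 15%, beside 28.0%, 19.1% and 21.0% of the others.

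The array with the lowest value was the same for most of these members. For 48 of the 60, 80%, it was exoRNeasy, as it was for 65.1% of the other undetected miRNAs. miR-466i-5p and miR-574-5p were highest on that array, as were some undetected members, among them miR-467f and miR-466h-3p. Across the 60 members the signals of the exoRNeasy and mirVana PARIS arrays went together (Pearson's r 0.79, Spearman's rho 0.70). The same values over the 1684 other undetected miRNAs were 0.71 and 0.77. In the other pairs r was 0.78 (exoRNeasy and miRNeasy advanced) and 0.79 (miRNeasy advanced and mirVana PARIS) over the members, and 0.86 in both over the others. The points share array design, probe chemistry and background treatment, and many share most of their sequence, so the correlation is a description of these arrays.

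**Figure D4:**
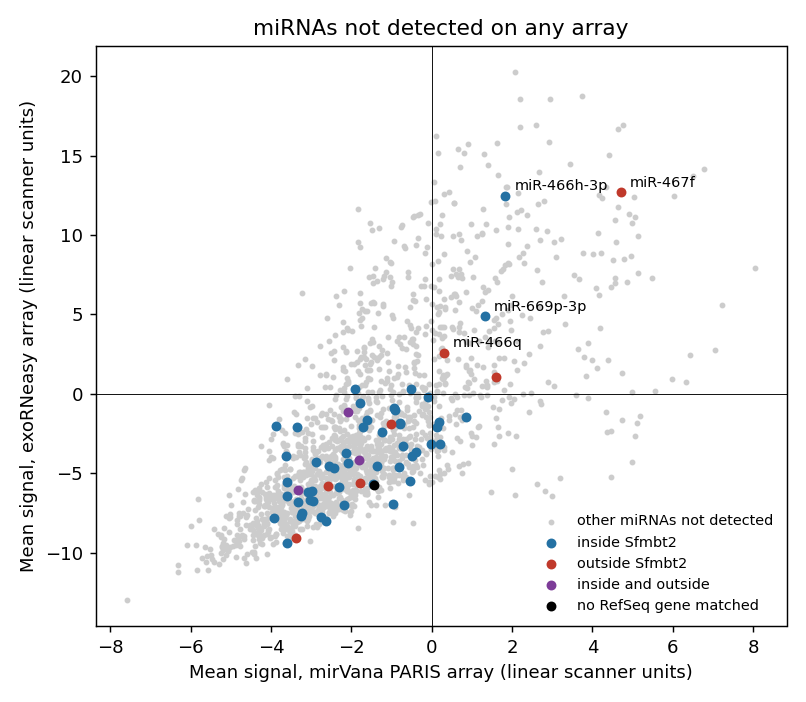
Mean signal on the mirVana PARIS array (horizontal axis) against the exoRNeasy array (vertical axis), both in linear scanner units, for the 60 members detected on no array, coloured by their place relative to Sfmbt2, and for 1684 other undetected miRNAs in grey. The members lie within the grey cloud, mostly below 0 on both axes, with miR-466h-3p and miR-467f above 12 on the exoRNeasy array.

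By family, all 3 miR-297 miRNAs were below 0 on every array. By the mean over the 3 arrays the highest was miR-297c-5p, at −3.17, −0.93 and −0.02 on exoRNeasy, miRNeasy advanced and mirVana PARIS, and the lowest was miR-297b-5p, at −6.94, −2.85 and −0.96. The 22 undetected miR-466 members had medians of −5.10, −2.32 and −2.38 in the same order. On the exoRNeasy array 2 of the 22 were above 0, miR-466h-3p and miR-466q. The lowest miR-466 member by the mean over the 3 arrays was miR-466n-5p of the Sfmbt2 cluster, at −9.37, −3.53 and −3.61.

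The 12 miR-467 members had medians of −1.80, −0.82 and −1.26 and the 23 miR-669 members of −4.32, −1.15 and −1.36. In the miR-467 family 3 of 12 were above 0 on exoRNeasy, miR-467b-5p, miR-467d-3p and miR-467f, and miR-467d-5p had the lowest mean over the 3 arrays, with −6.70, −2.68 and −3.03. In the miR-669 family 2 of 23 were above 0 on exoRNeasy, miR-669n and miR-669p-3p, and miR-669k-3p had the lowest mean over the 3 arrays, with −7.81, −3.17 and −3.93. On single arrays other members of the miR-297, miR-466, miR-467 and miR-669 families were lower than these. All of these family medians lay below 0 and below the negative-control means.

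The arms gave the same picture. The 26 members that are 3p arms had median signals of −3.77 on exoRNeasy, −1.35 on miRNeasy advanced and −2.37 on mirVana PARIS. The 24 undetected 5p arms stood at −3.82 on exoRNeasy and −0.95 on mirVana PARIS. The 10 names without an arm stood at −5.55, −1.53 and −2.17. The 49 miRNAs placed in Sfmbt2 alone had medians of −3.91, −1.60 and −1.78. Of these 49, 4 were above 0 on exoRNeasy, 7 on miRNeasy advanced and 6 on mirVana PARIS.

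The brightest undetected members were seen on the exoRNeasy array. miR-467f, in Fxr2, averaged 12.7 ± 7.84 scanner units over its spots on exoRNeasy, 2.74 ± 2.21 on miRNeasy advanced and 4.70 ± 4.07 on mirVana PARIS. Its probes differed, the brighter reading 19.3 ± 4.41, 3.41 ± 2.43 and 8.03 ± 2.68, with 20%, 0% and 26.7% of spots above background, and the dimmer 5.61, 2.06 and 1.38. miR-466h-3p, from the Sfmbt2 cluster, averaged 12.5 ± 4.12 on exoRNeasy, with its probes at 14.9 and 9.91, and 1.23 ± 1.71 and 1.83 ± 2.54 on the other arrays. For both miRNAs the exoRNeasy array was the highest. They were picked by a mean over the 3 arrays in which the exoRNeasy values weighed most, so this follows in part from the choice.

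The next by mean signal were miR-669p-3p and miR-669n. miR-669p-3p, from the Sfmbt2 cluster, averaged 4.90 ± 2.11 on exoRNeasy, 0.58 ± 2.14 on miRNeasy advanced and 1.33 ± 2.29 on mirVana PARIS. miR-669n, in Slc30a7, averaged 1.03 ± 2.73, 2.06 ± 2.22 and 1.59 ± 2.42, values that lay within each other's spread between spots. In miR-466q, in Tnik, the probes disagreed, at 10.4 ± 3.25 and −5.76 ± 2.54 on the exoRNeasy array. Over the 59 undetected members with more than 1 probe, the median gap between the highest and the lowest probe was 1.70 scanner units on exoRNeasy, 1.28 on miRNeasy advanced and 1.5 on mirVana PARIS, and the gap of 16.2 in miR-466q was the widest of them.

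Most miRNAs with a long alternating run were not detected, as was true of all miRNAs, of which 4.41%, 3.77% and 7.12% were detected on exoRNeasy, miRNeasy advanced and mirVana PARIS. A run of strictly alternating G and U of at least 8 bases was sought, beginning with either base and read on the mature strand. It was held by 9 of the 1608 array miRNAs with a sequence in the table, 0.56%. Of these 9, 3 were members, miR-574-5p, miR-466k and miR-669n, and miR-574-5p was the 1 detected. miR-466k, whose first 9 bases alternate U and G, was among the dimmest of all members, at −9.07, −3.59 and −3.39 on exoRNeasy, miRNeasy advanced and mirVana PARIS. miR-466j, with a run of 7, stood at −5.63, −2.46 and −1.79. The other carriers of a run of 8 or more were miR-1187, miR-3082-5p, miR-32-3p, miR-3097-5p, miR-6348 and miR-672-5p. The first of them has a run of 11 (chr5:82798964-82798986, minus strand) and the second a run of 10 (chr17:25831406-25831427, minus strand). Among the 1608 with a sequence these are the longest after miR-574-5p, and they are printed for comparison with it.
miR-1187: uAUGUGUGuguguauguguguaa
miR-3082-5p: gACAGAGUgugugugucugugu
The brightest probe of miR-3082-5p read 21.2 on exoRNeasy, 5.38 on miRNeasy advanced and 4.17 on mirVana PARIS, and that of miR-1187 read 9.21, 0.67 and 1.05. Neither was detected, and both were highest on the exoRNeasy array. There 12.3% of the undetected miRNAs outside the set exceeded the negative-control mean, against 1.19% and 1.37% on miRNeasy advanced and mirVana PARIS. The 4 carriers with runs of 8 or 9 that were not members had brightest probes between −5.03 and 2.47 on exoRNeasy.

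Among the 1608 array miRNAs with a sequence, runs of at least 8 alternating C and A were held by 4. All 4 were members (miR-466i-3p, miR-466q, miR-467f and miR-467g), and none was detected. The 8 members with a sequence all lie outside Sfmbt2, so none of the 49 placed in Sfmbt2 alone entered these counts. With 3 to 29 miRNAs in a class and at most 7.12% of all miRNAs detected on an array, such counts are too small to set carriers of a run apart from other miRNAs. miR-467g, in Grk4, with a run of 9, stood at −5.80, −1.79 and −2.59. With the shortest run set at 6, alternating G and U was found in 29 miRNAs, of which miR-574-5p and let-7b-5p were detected on at least 1 array. Set at 10, it was found in 3 miRNAs, of which miR-574-5p was detected. The place of miR-466i-5p in these counts is not given, since its sequence was not used here.

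**Figure D5:**
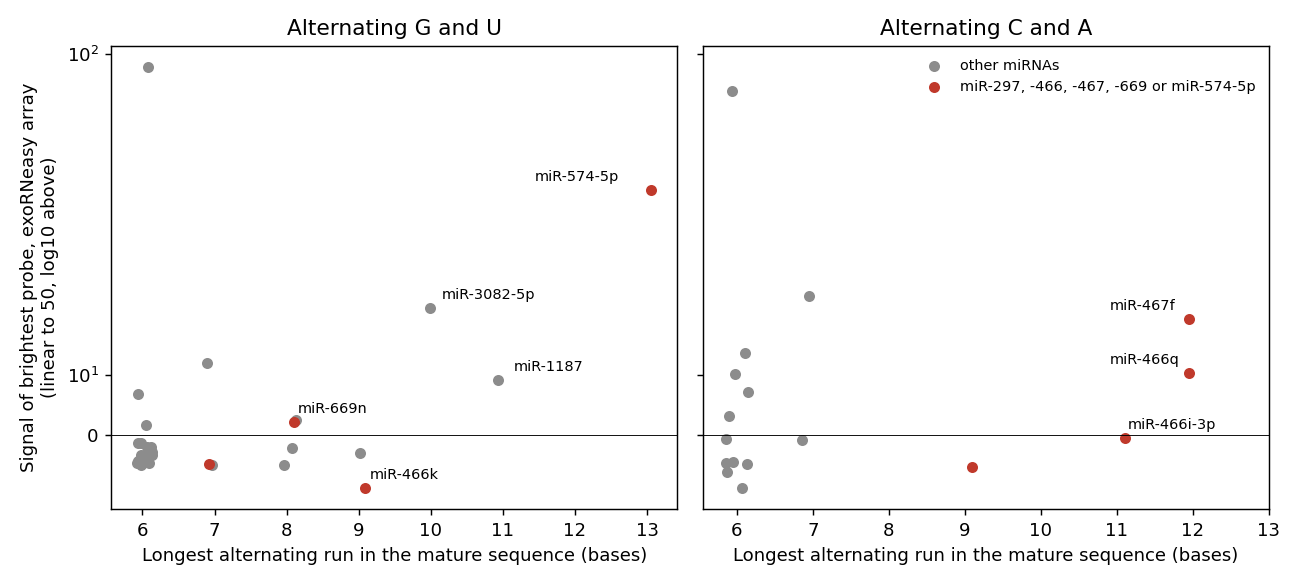
Signal of the brightest probe on the exoRNeasy array (vertical axis, scanner units, linear to 50 and log10 above) against the longest alternating run in the mature sequence (horizontal axis, bases), for runs of at least 6 of G and U (left) and of C and A (right), with members in red. miR-574-5p, with a run of 13, reads 40.8, while the members miR-466k and miR-669n, with runs of 9 and 8, lie at or near 0 or below it.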

How the data were processed

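Spot intensity on a linear scale was deposited by the authors after Agilent Feature Extraction (version 11.5.1.1 per the file headers, 11.5 in the submitters' processing notes), with background subtraction and detrending and no normalisation between arrays. The deposited value table held the same intensity values, within 0.50%, with column medians of −2.77 for exoRNeasy, −1.51 for miRNeasy advanced, and −1.44 for the mirVana PARIS array, so it is linear and not centred. Control spots and outlier-flagged spots (1515, 1474 and 1427 in that order) were left out. A floor of 1 was set on signals before log2 conversion, and they were averaged per probe and scaled to the 75th percentile over 106 probes, at 7.05, 6.21 and 8.02. A miRNA took its probe detected on most arrays, then the brightest. For dim miRNAs the linear mean over all spots and probes was used. A bound compares the bright array with the dim array's lowest detected probe, or with the miRNA's own dim value if that is higher.

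Named miRNAs were miR-574-5p and miR-574-3p, detected members, and the highest and lowest of each family. Also named were the longest G and U runs among the available sequences (up to 6 members and 6 others), and the 4 brightest undetected members. The others, named by place, host gene or software flag, were chosen after their values were seen. Members and lists were chosen with earlier results of these data known. RefSeq genes and sequences are of GRCm38.p6. The arrays name mm9 in their headers, and no coordinates were converted. Analyses used Python 3.11.15, pandas 2.3.3, R 4.3.3 and limma 3.58.1 (normexp, offset 50). The number of arrays limits the precision.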

Additional observations from a re-analysis of the deposited data

How the results depend on the processing

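No sign changed for either comparison with the exoRNeasy array under the alternatives run. For miR-466i-5p the log2 difference of exoRNeasy against miRNeasy advanced was 0.50 with normexp, 0.60 with uncorrected pixel medians, 2.27 without scaling, 1.78 when the percentile was taken from every probe and 2.39 when labelling spike-ins set the scale. Against mirVana PARIS it was 1.59, 1.75, 1.79, 1.33 and 2.04 in the same order, 2.51 with the median as scale and 2.39 with quantile normalisation. For miR-574-5p against mirVana PARIS it was 1.24, 1.42, 1.84, 1.38 and 2.09, and 1.88 with quantile normalisation. miR-466i-5p turned to lower on miRNeasy advanced than on mirVana PARIS without scaling, at −0.48. It was −0.45 with the percentile over all probes and −0.35 with the spike-in. miR-466i-5p was the 1 member compared in that pair, and was then not past 2-fold. Without scaling 0% of all 71 miRNAs of that pair were at least 2-fold higher on miRNeasy advanced and 80.3% at least 2-fold lower. With normexp or pixel medians the 1 member compared in exoRNeasy against miRNeasy advanced, miR-466i-5p, was not past 2-fold. The share over all miRNAs under those settings is not given. The log2 bound of miR-574-5p in that pair was 0.90, 0.62 with the median as scale, 1.24 with the percentile over all probes, 1.74 without scaling and 1.85 with the spike-in, so that it passed 2-fold under the last 3, and it was not run under normexp, pixel medians, quantile normalisation or the mean of probes.

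Detected members on mirVana PARIS fell from 2 to 1 when all spots of a probe or every probe of a miRNA was required, and with spots over the negative-control mean plus 3 SD on normexp values, pixel medians or, chosen after seeing the data, the processed signal. Of all miRNAs on that array 7.12% were detected by the main rule, 6.22% with all spots required and 3.99% with every probe required. With the negative-control settings 6.43% to 6.70% of all miRNAs were detected there. The last 3 settings added miR-467f on exoRNeasy, for 3 members, 4.84%, beside 5.79% to 6.49% of all miRNAs. On exoRNeasy 1 remained when every probe was required, where 2.34% of all miRNAs were detected, and the software flag gave 4 there and 2 on miRNeasy advanced. The cause was not tested. In all, 111 recomputed values moved by no more than the SD between spots or stayed within 1.5 times the count. Among them were the bounds of 0.62 and 1.24 and the counts of 3 given above. With 1 array per kit, leaving out a replicate was not run and no paired analysis was possible because each kit has a single array. Signal over background limits the set: 60 of 62 members have no measured level, and their absence from serum is not shown.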
